A study of Arabidopsis thaliana with 4 samples.

Results

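The genes described here are the protein-coding genes on chromosome 4 of Arabidopsis thaliana around MIR319A (AT4G23713, also called JAW), the microRNA gene affected in the jaw-D line. They were taken as all probe sets annotated to a single gene with a locus identifier from AT4G23500 to AT4G24400. Where a gene had more than 1 probe set, that with the highest mean stood for it. This gave 48 probe sets for 47 genes, of 13355 genes with a single-gene probe set on the array. The RefSeq gene table of the TAIR10.1 assembly lists 100 protein-coding genes in the stretch, 23 before and 77 after MIR319A. The arrays could be read by name for 10 of the first and 37 of the second. The other 53 genes and MIR319A itself had no probe set listed for them alone in the annotation table used, which leaves 8730 of the 22746 probe sets tested unnamed, and they were not analysed here by name.

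Total RNA came from aerial tissue of plants aged 2 weeks. The control group was Columbia, with 2 samples, and the other group was jaw-D, written jaw-d in the labels and described there as activation tagged, also with 2 samples. The labels name neither the tagging construct nor the number of plants in a sample, and jaw-D was a single line, so that the tag and any other difference between this line and Columbia cannot be told apart. The labels do not say whether replicates were grown or extracted separately, and the p-values therefore cover only the spread seen between the deposited samples, which could be technical.

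In activation tagging, transcriptional enhancers are inserted at random in the genome, where they can raise the transcription of genes near the insertion. The microRNA miR319 pairs with transcripts of a class of TCP transcription factors that restrain the growth of leaf margins, and plants with much miR319 have crinkled leaves. Enhancers can act on more than 1 gene, so the level of the genes beside the tagged locus is a natural question for such a line. Distance is given below in gene steps, the position of a gene in the annotated order of protein-coding genes counted from MIR319A, negative before it and positive after it. The reference names AT4G23720 and most other members by locus only, and no function is given for those.

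Values are microarray intensities on a linear scale after quantile normalization of the 4 arrays. The medians of the deposited values lay between 1032 and 1146 units, and their mean after trimming 2% at each end was 2500 units on every array. Differences are jaw-D minus control in log2(intensity + 302.3), the added constant being the 25th percentile of all deposited values, and they understate the change of dim genes. Each difference was tested with limma over all 22746 probe sets, and an adjusted p (Benjamini-Hochberg) under 0.05 counts as called. The probe sets for Bacillus subtilis transcripts, which plants lack, reached at most 353 units, and genes whose group means both stayed within this level are termed near background. The green tissue genes RCA, rubisco activase, and LHCB4.1, a light-harvesting protein, were bright, together at 147406 to 149652 units in control and 138104 to 139046 in jaw-D. The root hair gene EXPA7 was near background by its group means, at 275 and 351 units in control and at 87.0 and 520 in jaw-D. The other 3 green tissue markers, 4 root markers and 5 flower markers had no named probe set.

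Of the 47 genes, AT4G23720 rose in jaw-D, AT4G24090 and AT4G24350 fell, and 44 did not pass the test. In whole aerial tissue, a lower level per cell and fewer cells that hold a transcript cannot be told apart. AT4G23720 is the protein-coding gene that follows MIR319A directly. AT4G24090 lies 42 gene steps after MIR319A and AT4G24350 lies 73 steps after it. Over all probe sets tested 4.19% were called, 1.64% as higher and 2.54% as lower in jaw-D. Among the genes around MIR319A the share called was 6.38%, which is 3 genes, 1 higher and 2 lower, and so the stretch as a whole was near the background. Of 1888 other genes on chromosome 4, 73 were called, or 3.87%. The median difference of the 47 genes was -0.01, beside 0.01 over all probe sets tested, and 23 differences were positive and 24 negative. For the 36 genes above background the median was 0.10, with 20 differences positive and 16 negative. This shift was not tested.

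The intensity of AT4G23720 was 453 and 586 units on the control arrays and 1781 and 1647 units on the jaw-D arrays. Both jaw-D values lay far above both control values, and the gap between the groups was several times the gap within either. The mean went from 520 ± 93.7 to 1714 ± 95.3 units (SD, n = 2 each), a ratio of 3.30. With the constant added, the log2 difference was 1.30 ± 0.15 (SE), with a 95% interval from 0.94 to 1.66 and an adjusted p of 0.0196 in limma. This was the eighth largest positive difference of the 22746 probe sets and the largest among 1935 genes of chromosome 4 with a single-gene probe set. The result of AT4G23720 was known from earlier work on these data, so its rank is a description only. The next largest difference in the stretch was 0.47. In the values as deposited, before quantile normalization, the intensity was 480 and 544 units in control and 1836 and 1717 in jaw-D. With any 1 array left out the difference stayed between 1.18 and 1.42. Such fits leave 1 sample in a group and call few probe sets anywhere on the array. The loss of the call in them is therefore not particular to this gene.

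**Figure D1:**
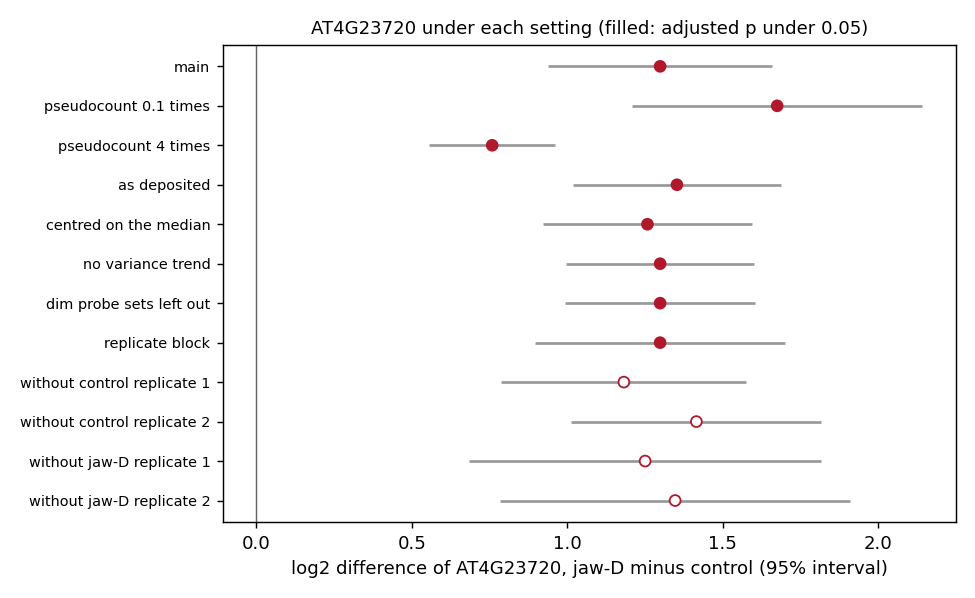
Log2 difference of AT4G23720 (jaw-D minus control, with 95% interval) under the main setting and each alternative, filled where the adjusted p was under 0.05. All values lie between 0.76 and 1.67, and the 4 settings that leave out an array, between 1.18 and 1.42, are open. These settings leave 1 sample in a group, and few probe sets of the whole array pass in them.

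**Figure D2:**
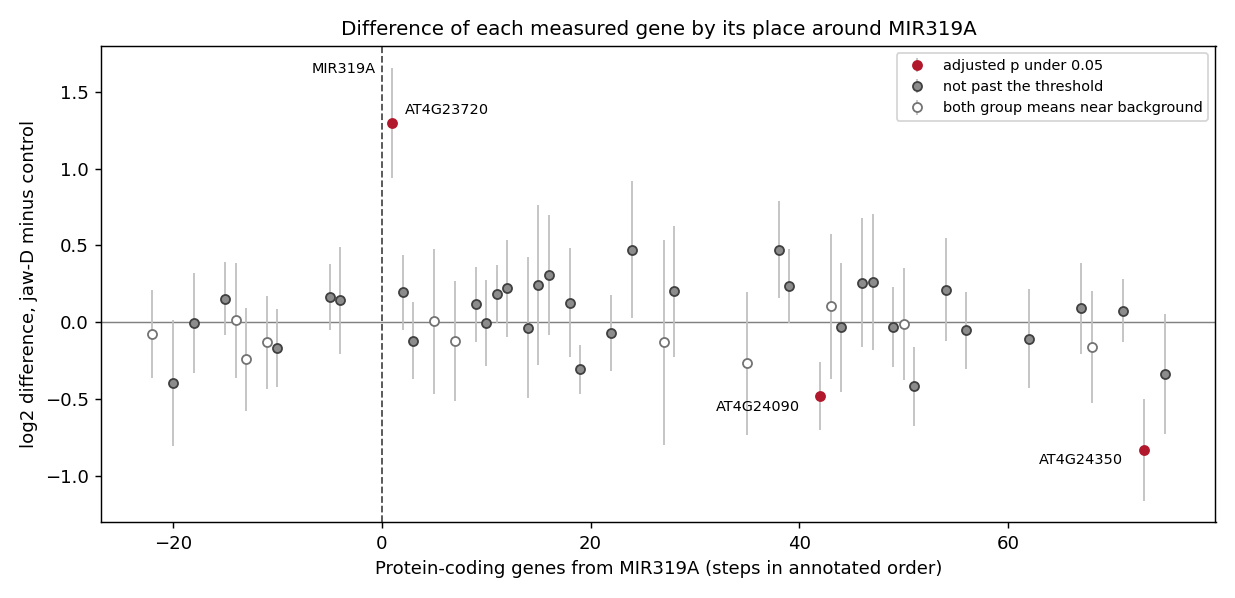
Log2 difference (jaw-D minus control) of each of the 47 measured genes against its gene steps from MIR319A, the dashed line, with 95% intervals from limma. AT4G23720, at step 1, stands at 1.30, and the called falls of AT4G24090 and AT4G24350 lie at steps 42 and 73. The 9 other measured genes within 10 steps lie between -0.17 and 0.19. Before MIR319A the measured genes begin at step -4, and the genes between are not shown.

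The measured genes next to AT4G23720 did not share a difference of this size. AT4G23730, at step 2, was at 2518 and 2568 units in control and 3145 and 2772 in jaw-D. Both jaw-D values were above both control values, but by little. The log2 difference was 0.19 with a 95% interval from -0.05 to 0.44 (adjusted p 0.354 in limma). As deposited it was 0.26, with an interval from 0.03 to 0.49 that leaves out 0 (adjusted p 0.198). Centred on the median it was 0.17, with an interval from -0.08 to 0.41. AT4G23740, at step 3, was at 3458 and 3000 units in control and 2856 and 3030 in jaw-D. Its groups overlapped, and the difference was -0.12 with an interval from -0.37 to 0.13. CRF2, a cytokinin response factor and the gene at step 4, had no probe set named for it alone. AT4G23760, at step 5, and AT4G23780, at step 7, were near background, so a small change there could not be read. AT4G23760 was at 151 and 340 units in control and 270 and 211 in jaw-D, and its groups overlapped.

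Before MIR319A the 3 nearest genes, VAG2, CHX17 and DIR6, had no named probe set, so the level of the immediate neighbours on this side was not analysed here. VAG2 encodes a subunit of the vacuolar proton pump, CHX17 a cation/proton exchanger and DIR6 a dirigent protein. AT4G23680, at step -4, was at 447 and 356 units in control and 480 and 466 in jaw-D. The jaw-D values were just above the control values, close to the near-background level, and the log2 difference was 0.14 (adjusted p 0.656). AT4G23670, at step -5, was the brightest of the 47 genes, at 15726 and 17502 units in control and 17686 and 19603 in jaw-D. Its groups did not overlap, but were separated by less than the gap between replicates, and the difference was 0.16 (adjusted p 0.378). This sign depends on the scaling, with 0.07 for deposited values and -0.02 for arrays centred on their medians. AT4G23620, at step -10, was at 2165 and 2081 units in control and 1938 and 1774 in jaw-D, with a difference of -0.17. AT4G23610 and AT4G23590, at steps -11 and -13, were near background, with differences of -0.13 and -0.24. Control replicate 1 was the higher control array for both, and without it the differences were -0.05 and -0.06.

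Within 10 gene steps of MIR319A the table lists 20 genes, of which 10 could be measured by name. AT4G23720 was the called gene among them. The 9 others had differences between -0.17 and 0.19, and the lowest adjusted p among them was 0.354 (limma). Missing the threshold does not show that these genes were equal in both groups. For the 5 others within 5 steps the 95% intervals reached from -0.46 to 0.49, while the interval of AT4G23720 began at 0.94. Over all 46 other genes of the stretch the highest upper bound was 0.92, that of AT4G23930. This separation did not hold in every setting: 3 genes reached the lower bound of AT4G23720 with the constant at 0.1 times its value, 1 with the replicate block and 1 to 9 with an array left out. The difference between AT4G23720 and each other gene was not itself tested, and for dim genes the added constant narrows these bounds.

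**Figure D3:**
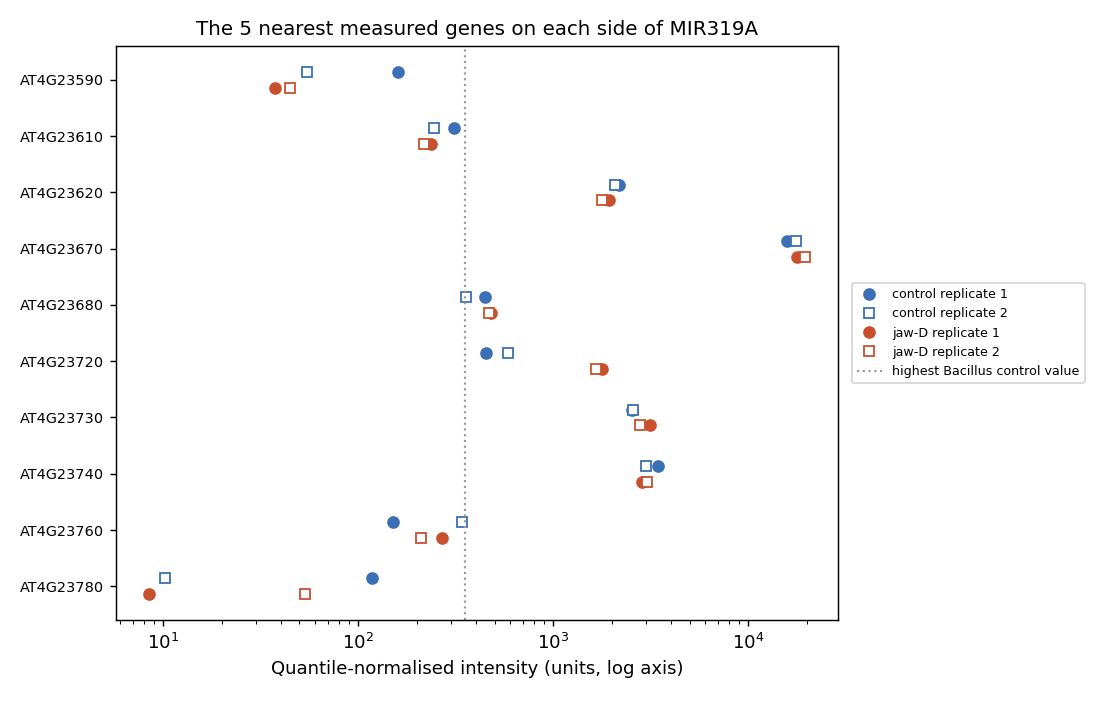
Quantile-normalised intensity (units, log axis) on each of the 4 arrays for the 5 nearest measured genes before and the 5 after MIR319A, in locus order. The jaw-D points of AT4G23720 lie at 1647 and 1781 units, apart from its control points at 453 and 586, while for AT4G23670 and AT4G23740 the points of both groups lie close together; the dotted line marks the highest Bacillus control value.

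The differences were next set against distance. Counting both sides together, the 6 genes measured at 1 to 5 steps had a median difference of 0.15, and 1 of them was called. The 4 genes at 6 to 10 steps had a median of -0.07, with no call. The 13 genes at 11 to 20 steps had a median of 0.01, with no call in limma and 1 gene at an unadjusted p under 0.05. The 24 genes at 21 steps or more had a median of -0.03, and 2 were called, both lower. Beside the 4.19% called over all probe sets tested, bins of this size are too small to compare by their calls. The median size of the difference, taken without its sign, was 0.15, 0.12, 0.18 and 0.18 in these bins, from the nearest to the farthest. In the nearest bin the 5 genes other than AT4G23720 had differences from -0.12 to 0.19.

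Across the 47 genes the signed difference had a Pearson correlation of -0.32 and a Spearman correlation of -0.22 with gene steps away from MIR319A. Without AT4G23720 these were -0.26 and -0.16. The size of the difference had a Pearson correlation of 0.04 and a Spearman correlation of 0.09 with distance, and of 0.26 and 0.16 without AT4G23720. The Pearson value near 0 rests on this gene, while the Spearman value moved less. These values describe genes measured on the same 4 arrays, and genes are not independent replicates. Among 20 pairs of measured genes that are direct neighbours, 10 pairs had differences of the same sign and 10 of opposite sign.

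The stretch before MIR319A held no called gene among its 10 measured members, with a lowest adjusted p of 0.267 in limma and no gene at an unadjusted p under 0.05. This lowest value belonged to AT4G23520, at step -20, with 510 and 351 units in control and 212 and 294 in jaw-D (log2 difference -0.40). The 37 genes after MIR319A held all 3 calls, and 7 of them had an unadjusted p under 0.05, 3 higher and 4 lower. Taken over both sides, the 7 are 14.9% of the 47 genes, against 19.9% of all probe sets tested, 10.1% higher and 9.79% lower. With 4.19% of all probe sets called, a count of 0 among 10 genes does not set the side before MIR319A apart. The sides were not compared by a test. In 25 of the 47 genes, or 53.2%, the jaw-D values did not overlap the control values, against 49.0% of all probe sets tested, 25.5% higher and 23.6% lower. These shares around MIR319A, 14 genes higher and 11 lower, were near the background.

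AT4G24350 was at 3536 and 2877 units in control and 1805 and 1533 in jaw-D. Both jaw-D values were well below both control values, and the mean fell from 3207 ± 466 to 1669 ± 193 units (SD, n = 2 each), to 0.520 of the control. On the log2 scale the difference came to -0.83 ± 0.13 (SE), with an interval from -1.16 to -0.50 and an adjusted p of 0.0367 in limma. It was the 164th largest fall among the 22746 probe sets. The call was lost without the variance trend (adjusted p 0.0851 in limma), where calls over all probe sets fell from 952 to 65. With any 1 array left out the difference was -0.97 to -0.69. AT4G24380, located 2 steps further, was at 1926 and 1405 units in control and 1226 and 1259 in jaw-D, with a difference of -0.34 (adjusted p 0.322), and of -0.14 without control replicate 1. The jaw-D values of AT4G24380 were below both control values, but the control arrays lay far apart.

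AT4G24090 was at 4921 and 4721 units in control and 3167 and 3579 in jaw-D. The groups did not overlap, and the mean fell from 4821 ± 142 to 3373 ± 291 units (SD, n = 2 each), to 0.700 of the control. The log2 difference was -0.48 ± 0.09 (SE), and its adjusted p of 0.0494 in limma lay just under the threshold. The call was lost with the values as deposited (adjusted p 0.0529 in limma) and with the constant at 4 times its value (0.0587). It was also lost without the variance trend (0.113) and with the replicate number as a block (0.0819). With any 1 array left out the difference was -0.56 to -0.40. Between AT4G23720 and AT4G24090, 20 measured genes did not pass the test, and 13 between AT4G24090 and AT4G24350 did not pass either.

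**Figure D4:**
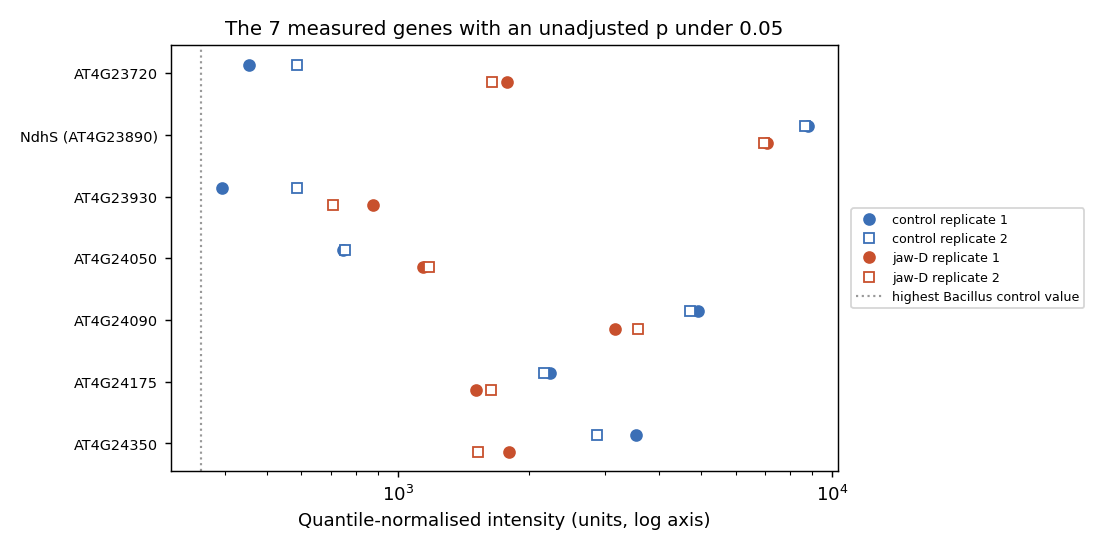
Quantile-normalised intensity (units, log axis) on each array for the 7 measured genes with an unadjusted p under 0.05, in locus order. The groups do not overlap in any of them: AT4G23720, AT4G23930 and AT4G24050 have higher jaw-D values, and NdhS, AT4G24090, AT4G24175 and AT4G24350 have lower jaw-D values.

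The other 4 genes with an unadjusted p under 0.05 missed the threshold after adjustment. NdhS (AT4G23890, step 19), a subunit of the chloroplast NADH dehydrogenase-like complex, was at 8799 and 8681 units in control and 7069 and 6953 in jaw-D. The replicates of this gene were very close, and the difference came to -0.31 ± 0.07 (SE) on the log2 scale (adjusted p 0.0659 in limma). The value passed with each array centred on its median (-0.41, adjusted p 0.0293 in limma) and when dim probe sets were left out (adjusted p 0.0447). Both settings called more probe sets over the whole array, 1226 and 2113 against 952, so these passes are not particular to NdhS. Centred on the median, the median difference over all probe sets was -0.06. AT4G24175, at step 51, was at 2247 and 2174 units in control and 1517 and 1643 in jaw-D, with a difference of -0.42 (adjusted p 0.0926, and 0.0359 when dim probe sets were left out).

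Among the positive differences, AT4G24050, at step 38, was at 746 and 758 units in control and 1141 and 1182 in jaw-D. Its replicates were close, and the difference was 0.47 with an interval from 0.16 to 0.79 (adjusted p 0.112 in limma). The adjusted p was 0.0358 when dim probe sets were left out, a setting that called 2113 probe sets against 952 in the main fit. AT4G23930, at step 24, was at 394 and 584 units in control and 876 and 708 in jaw-D, also a difference of 0.47, with a wider interval from 0.03 to 0.92 (adjusted p 0.226). The other 7 of the 10 largest positive differences were 0.31 for AT4G23880, 0.24 for AT4G23870 and AT4G24060, 0.22 for AT4G23840, 0.26 for both AT4G24130 and AT4G24140, and 0.21 for AT4G24200. None of these 7 passed in limma, with adjusted p between 0.263 and 0.606 and none at an unadjusted p under 0.05, and the control and jaw-D values overlapped in AT4G23870 and AT4G24140. Several rest on 1 array. AT4G23870 was at -0.03 without control replicate 1 and at 0.52 without control replicate 2, AT4G24140 at 0.09 and 0.43 in the same fits, and AT4G24130 at 0.07 without jaw-D replicate 1 and 0.45 without jaw-D replicate 2. AT4G23840 was the gene with 2 probe sets, and its dimmer probe set gave a difference of 0.06 where the brighter gave 0.22.

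**Figure D5:**
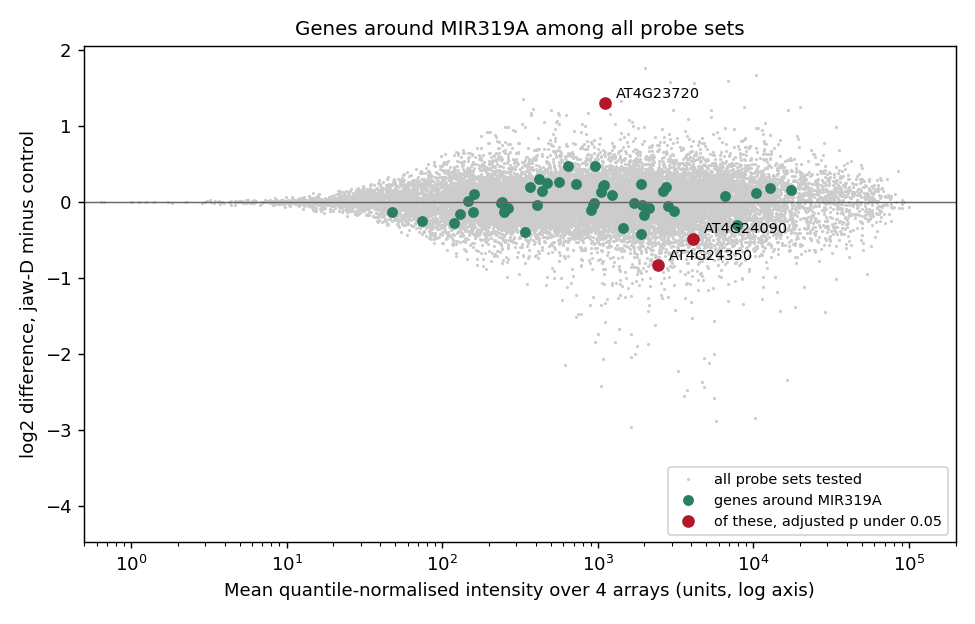
Log2 difference (jaw-D minus control) against the mean intensity over the 4 arrays (units, log axis) for all 22746 probe sets in grey and the 47 genes around MIR319A in colour. AT4G23720 lies at the upper edge of the cloud at 1.30, and AT4G24350 lies at -0.83, the 164th lowest difference. AT4G24090, at -0.48 the 838th lowest, lies within the cloud, as do the genes not called.

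Of the 6 measured genes with a symbol 0 passed in the limma fit, and 1, NdhS, had an unadjusted p under 0.05. These shares were 4.19% and 19.9% over all probe sets tested, so counts among 6 genes say little. SGT1A (step -15), a co-chaperone of disease resistance proteins, was at 2473 and 2450 units in control and 2620 and 2925 in jaw-D, which is a difference of 0.15 (adjusted p 0.465). SLY1 (step 56), an F-box protein that acts in gibberellin signalling, was at 2941 and 2833 units in control and 2976 and 2578 in jaw-D (-0.05). WRKY53 (step 10), a transcription factor of leaf senescence, was at 1783 and 1674 units in control and 1615 and 1826 in jaw-D (-0.01). The groups overlapped in both. The chromosomal protein gene 3xHMG-box2 (step 9) was at 10539 and 9373 units in control and 10061 and 11607 in jaw-D (0.12), and its groups overlapped as well. GH9A3 (step 62), an endoglucanase of the glycosyl hydrolase family named in its symbol, was at 995 and 907 units in control and 850 and 870 in jaw-D (-0.11, adjusted p 0.734). AT4G23910, at step 22, completes the 10 largest negative differences, with 2281 and 2093 units in control, 2111 and 2019 in jaw-D and a difference of -0.07, which was 0.01 as deposited.

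The members had also been sorted by role from general knowledge of the loci. Of 40 loci in 6 role groups, 11 were measured, and 0 of these were called in limma, with 1, NdhS, at an unadjusted p under 0.05. Over all probe sets tested the shares were 4.19% and 19.9%. The 11 genes are too few to read these counts as a result about the roles. Transcription and chromatin had 4 of 9 loci measured, with a median difference of 0.06 and the smallest p at AT4G24060 (1742 and 1704 units in control, 2083 and 2084 in jaw-D, difference 0.24, adjusted p 0.263). Signalling and hormone perception had 3 of 7 measured (median -0.05), SGT1A, AT4G23740 and SLY1. Lipid, sugar and stress metabolism had 2 of 8 measured (median 0.15), AT4G23670 and AT4G23680. Cell wall and glycans, a list that does not include GH9A3, had 1 of its 9 loci measured, AT4G23820 (12264 and 11886 units in control, 14488 and 13055 in jaw-D, difference 0.18, adjusted p 0.262). Plastid proteins had 1 of 3, NdhS, and ion and metal transport 0 of 4. The place of a member known by locus only in these groups was not checked against the reference.

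The remaining 36 measured genes held the 3 calls and had a median difference of -0.01. With 4.19% called over all probe sets tested, the place of the 3 calls outside the role groups is not a result about roles. In all, 11 of the 47 genes were near background in both groups, among them AT4G23510, AT4G23580, AT4G23960, AT4G24030, AT4G24100, AT4G24170 and AT4G24300, with differences from -0.27 to 0.10. For these genes the added constant is close to the signal or above it, so that a difference on the log2 scale is compressed. The median gap between replicates of a gene in the stretch was 0.16 on the log2 scale for the control arrays and 0.14 for the jaw-D arrays, beside 0.13 and 0.12 over all probe sets. The median size of the difference between the groups was 0.16 in the stretch and 0.14 over all probe sets.

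The genes that miR319 acts on could not be set beside these values, since none of 9 listed targets, TCP and MYB genes, was listed alone for a probe set in the annotation table used, which says nothing of whether the array carries a probe for them. Of 5 genes reported downstream of the TCP class, RR16, a cytokinin response regulator, was measured. It was at 5346 and 5861 units in control and 1001 and 923 in jaw-D. The difference was -2.22 (adjusted p 0.00209 in limma), a fall larger in size than the rise of AT4G23720.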

How the data were processed

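Transcript levels were measured on 4 arrays, 2 per group (Columbia and jaw-D). The values deposited by the authors are microarray intensities, 1 per probe set and array, on a linear scale. They had been scaled to a common trimmed mean, as the values themselves show; the software is not given in the sources used here, and no detection calls were used. After removal of 64 control probe sets, quantile normalization was applied to the remaining 22746, which were transformed as log2(intensity + 302.3) and tested with limma (version 3.58.1 in R 4.3.3; lmFit, eBayes with a variance trend, 2 residual degrees of freedom, two-sided), without a replicate block. The fit was also run on simulated data with planted changes and the same spread for every probe set. That run does not test how the fit performs with the spread of these arrays.

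Names of probe sets came from the platform's annotation through gene identifiers matched to the RefSeq table of TAIR10.1, which served only for names and gene order. No set test was run. Named genes were the called genes, the 5 nearest measured genes on each side, the 10 largest differences in each direction above background and the smallest p of each role group; WRKY53, SLY1, 3xHMG-box2 and the listed near-background genes fall outside this rule and were chosen after their values were seen. The members and lists were chosen with earlier results of these data known, that of AT4G23720 among them. Alternatives were other constants, scalings, filters and fits, and leaving out each array. Precision is limited by the small number of arrays.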

Additional observations from a re-analysis of the deposited data

How the results depend on the processing

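The difference of AT4G23720 stayed positive and called under other constants (1.67 at 0.1 times and 0.76 at 4 times the main one). The same held as deposited (1.35), centred on the median (1.26), without the variance trend and without dim probe sets. With 1 array left out the difference was 1.18 to 1.42, and the call is not compared there. The count of called members, 3 in the main fit, was 1 without the variance trend and 6 of 36 with dim probe sets left out. As deposited it was 2 (1 higher, 1 lower), and centred on the median it was 4 (1 higher, 3 lower). In the first 2 of these settings the calls over all probe sets moved the same way, from 952 to 65 and 2113. They rose to 1131 as deposited and to 1226 centred on the median. The share called among all probe sets left without dim ones is not given, so 6 of 36 is not read as a result. Fits that lack an array leave 1 sample in a group, and member counts from them are not compared. The count within 10 gene steps stayed at 1 in each fit that keeps the 4 arrays. The count in the role groups, 0, was 1 both centred on the median and without dim probe sets, NdhS each time. The median difference of the members moved to 0.10 over the 36 genes left without dim probe sets, beside 0.01 over all probe sets in that setting. With 1 array left out it was 0.02 to 0.04. Among the named genes that were not called, the sign turned for AT4G23670 (-0.0214 centred on the median), AT4G23910 (0.0093 as deposited) and AT4G23760 (-0.0023 at 4 times the constant, -0.0668 centred on the median), and with 1 array left out for AT4G23760 (-0.24 to 0.26), AT4G23780 (-0.34 to 0.0893) and AT4G23870 (-0.0333 to 0.52). Leaving out dim probe sets tests fewer genes; the cause of the other shifts was not tested. Over all probe sets 952 were called, against 65 without the variance trend, 2113 without dim probe sets, 466 with the replicate block and 0 to 14 with an array left out; the higher share of the calls was 39.3%, and 20.2% centred on the median. Deviations from the group mean had a correlation of -0.02 over probe sets between the 2 samples numbered 1. This value gives no sign of pairing but cannot show whether samples with the same number were handled together. With the replicate number as a block 2 members were called in limma, AT4G23720 (1.30, adjusted p 0.0369) and AT4G24350.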

Other observations

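On the array, 3 further probe sets were annotated to several genes of which at least 1 lies between AT4G23500 and AT4G24400, so no gene can be named for them. Of these, 1 was at 6559 and 5540 units in control and 2747 and 2873 in jaw-D, a log2 difference of -1.02 ± 0.10 (SE) with an adjusted p of 0.0185 in limma. The other two did not pass, with differences of 0.00 and 0.08. These probe sets were looked at after the values of the 47 genes had been seen.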
